A study of Mus musculus with 4 samples.

Results

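Small leucine-rich proteoglycans are secreted proteins built from leucine-rich repeats that bind collagen fibrils and set their spacing and width. Biglycan and decorin carry chondroitin or dermatan sulfate chains, fibromodulin, lumican and keratocan belong to the branch that can carry keratan sulfate, and several family members bind transforming growth factor beta in the matrix. Versican is unrelated in its core, a large chondroitin sulfate proteoglycan that binds hyaluronan and belongs to the provisional matrix of growing and injured tissue. In skeletal muscle these proteins lie in the connective tissue around fibres and fascicles and in tendon. The 10 genes described here were the small leucine-rich proteoglycans Bgn, Dcn, Aspn, Lum, Fmod, Prelp, Kera, Omd and Ogn, and versican (Vcan). They were found through the Entrez number that names each probe set, all 10 were measured, and each had 1 probe set among the 16492 tested.

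Quadriceps RNA of 4 mice was hybridised to Affymetrix arrays, 1 for each animal. The genotype label Titin mutant marks 2 of them, called mdm mutant here, and Titin wild type marks the other 2, and all 4 carry the strain label B6C3Fe a/a-Ttnmdm/J. Sample titles write Ttn+ for the mutants and Ttn- for the others, and the genotype, source and description labels all assign the mutation to the Ttn+ mice, so the plus sign is read here as presence of the mutation. Titin is the giant sarcomere protein that acts as a molecular spring, and mdm is a spontaneous mutation of its gene that causes muscular dystrophy. The labels give no age, sex, litter or zygosity, so these cannot be set beside the results. Each mouse has its own number in the labels, so the spread is that between animals, with n = 2 per group throughout. All values are log2 RMA levels, differences subtract wild type from mdm mutant levels and stand ± limma's standard error, and an array level says nothing of 1 gene against another. A gene was called where limma's p, adjusted by Benjamini-Hochberg across the whole array, was under 0.05.

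The promoters of Bgn and Aspn are shown because these were the called members with the largest differences, and that of Kera because it had the largest difference in the other direction. Each runs from 250 bases before to 50 bases after the gene's start in build GRCm38.p6, on the gene's strand, with sequences from RefSeq, and 8 of the 10 genes had an entry (all but Dcn and Lum). Capitals mark matches on either strand to any of 5 motifs. The TATA box was searched as TATAAA and the GC box as GGGCGG. The E-box was searched as CANNTG, where N is any base. The AP-1 motif was searched as TGANTCA, and the Smad box, bound by mediators of transforming growth factor beta signals, as CAGAC. The Bgn stretch lies at chrX:73483351-73483650 on the plus strand, that of Aspn at chr13:49544193-49544492 on the plus strand, and that of Kera at chr10:97606955-97607254 on the plus strand.
Bgn: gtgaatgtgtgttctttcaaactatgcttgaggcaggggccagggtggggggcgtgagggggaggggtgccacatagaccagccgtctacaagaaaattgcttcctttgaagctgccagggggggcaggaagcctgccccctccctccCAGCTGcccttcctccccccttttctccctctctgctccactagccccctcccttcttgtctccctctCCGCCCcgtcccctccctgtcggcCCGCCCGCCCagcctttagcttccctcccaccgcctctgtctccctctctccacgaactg
Aspn: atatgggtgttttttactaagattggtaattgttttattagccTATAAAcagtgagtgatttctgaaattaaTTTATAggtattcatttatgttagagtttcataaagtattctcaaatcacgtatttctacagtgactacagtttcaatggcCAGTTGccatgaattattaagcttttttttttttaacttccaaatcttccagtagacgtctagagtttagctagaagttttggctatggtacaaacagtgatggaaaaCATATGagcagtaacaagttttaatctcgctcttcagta
Kera: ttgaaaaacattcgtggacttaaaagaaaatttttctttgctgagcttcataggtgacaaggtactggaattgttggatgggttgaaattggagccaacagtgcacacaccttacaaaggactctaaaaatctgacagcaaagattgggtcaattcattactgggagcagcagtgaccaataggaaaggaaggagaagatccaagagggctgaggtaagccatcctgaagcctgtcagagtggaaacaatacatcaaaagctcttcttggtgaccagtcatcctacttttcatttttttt
The Bgn stretch was 63.7% G and C and held 3 GC boxes, 2 of them overlapping, and 1 E-box. The Aspn stretch was 31.0% G and C and held 2 E-boxes and 2 matches to the TATA box. These matches began at positions −207 (forward strand) and −178 (reverse strand) from the start. Over all stretches of plus-strand genes, forward TATAAA began most often at −30, and neither Aspn match lay there. The Kera stretch, at 41.0% G and C, held none of the 5 motifs. Of all 32851 promoter stretches of this length, 35.7% held a GC box, 72.3% an E-box, 13.6% a TATA box, 49.6% a Smad box and 7.81% an AP-1 motif. Among the 8 members with an entry, 6 held an E-box, 2 a GC box (Bgn and Vcan) and 2 a TATA box match (Ogn and Aspn). The Ogn matches began at −229 and −227. A Smad box was held by 2 (Fmod and Prelp) and an AP-1 motif by 0.

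In mdm mutant muscle Bgn, Aspn and Lum rose, and none of the 10 genes was called lower. Across all probe sets 12.8% were called, 6.46% as higher and 6.36% as lower. All 10 genes lie in the brighter 50% of probe sets. With the fit kept to these, 22.2% were called, 10.2% as higher and 11.9% as lower, and the same 3 genes were called. With the arrays centred on hybridization control probe sets instead, 17.2% were higher and 3.66% lower, and 5 of the 10 genes were called higher, Dcn and Ogn being added. Differences were above 0 for 8 of the 10 genes, with a median of 0.21, against a median of −0.02 over all probe sets, of which 44.4% were above 0. For 6 of the 10 genes both mice of 1 group lay above both of the other, and this held for 60.9% of all probe sets. Because the tissue was measured in bulk, more cells that make a transcript and more of it per cell cannot be told apart.

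Biglycan (Bgn, Entrez 12111), which binds collagen, transforming growth factor beta and the dystroglycan complex and can signal through toll-like receptors, had the largest called difference. Its level was 11.49 and 11.66 in the mdm mutant mice, against 10.74 and 10.85 in the wild type mice. Both mutants lay above both wild type mice, with a gap of 0.64 between the groups. The difference was 0.78 ± 0.08, or 1.71-fold (95% interval 1.49 to 1.97), with an adjusted p of 0.00923. Bgn was the 1 member that stayed called with any 1 mouse left out.

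Asporin (Aspn, Entrez 66695), a close relative of biglycan and decorin that carries a stretch of aspartates and binds transforming growth factor beta, read 10.14 and 9.75 in the mdm mutant mice, against 9.29 and 9.22 in the wild type mice. The groups were apart, and the mdm mutant mice differed more from each other than the wild type mice did. The difference was 0.69 ± 0.13, or 1.61-fold (95% interval 1.29 to 2.02, adjusted p = 0.0303). It was not called without wild type 1 (0.72, adjusted p = 0.106) or without wild type 2 (0.66, adjusted p = 0.131).

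Decorin (Dcn, Entrez 13179), the small proteoglycan that limits the lateral growth of collagen fibrils, read 13.27 and 13.38 in the mdm mutant mice, against 13.06 and 13.15 in the wild type mice. The groups did not overlap, but the difference of 0.22 ± 0.07 was not called (adjusted p = 0.0858). Its 95% interval was 0.06 to 0.39, so a rise beyond 1.31-fold lay outside it. Dcn read brighter than 99.7% of probe sets.

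Lumican (Lum, Entrez 17022), which regulates collagen fibril assembly in cornea, skin and tendon, read 11.45 and 11.51 in the mdm mutant mice, against 11.07 and 11.06 in the wild type mice. It had the smallest spread between mice of a group among the 10 genes, with an SD of 0.03. The difference was 0.42 ± 0.05, or 1.34-fold (95% interval 1.22 to 1.46, adjusted p = 0.0130). With 1 mouse left out it was 0.38 to 0.45 and stayed called only without mdm mutant 1, while the adjusted p was 0.0616 when mdm mutant 2 was left out, 0.0643 for wild type 1 and 0.0693 for wild type 2.

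Fibromodulin (Fmod, Entrez 14264), a relative of lumican abundant in tendon and cartilage, read 11.43 and 12.07 in the mdm mutant mice, against 10.80 and 11.67 in the wild type mice. The groups overlapped, since wild type 2 lay above mdm mutant 1. The difference of 0.51 ± 0.33 was not called (adjusted p = 0.362), and its 95% interval ran from 0.80-fold to 2.56-fold. With 1 mouse left out the difference was between 0.08, without wild type 1, and 0.95, without wild type 2.

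Prelp (Entrez 116847), a proline- and arginine-rich member of the same branch that binds heparan sulfate and collagen, read 8.16 and 8.32 in the mdm mutant mice, against 7.84 and 8.25 in the wild type mice. These values overlapped and the difference of 0.19 ± 0.14 was not called (adjusted p = 0.424). It was −0.01 without wild type 1.

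Keratocan (Kera, Entrez 16545), best known as a keratan sulfate proteoglycan of the cornea, had the largest difference of the 10 genes, in the opposite direction from Bgn. Its level was 10.20 and 9.99 in the mdm mutant mice, against 10.54 and 11.41 in the wild type mice. The groups did not overlap, but the wild type mice stood 0.87 apart. The difference of −0.88 ± 0.28 was not called (adjusted p = 0.0995), with a 95% interval of −1.58 to −0.18. It was −1.32 and called without wild type 1 (adjusted p = 0.0257), and −0.45 and not called without wild type 2 (adjusted p = 0.116), so its size rested on wild type 2.

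Osteomodulin (Omd, Entrez 27047), a keratan sulfate proteoglycan of mineralized tissue, read 7.41 and 7.56 in the mdm mutant mice, against 7.54 and 7.71 in the wild type mice. The groups overlapped and the difference of −0.14 ± 0.08 was not called (adjusted p = 0.331). Osteoglycin (Ogn, Entrez 18295), also called mimecan, read 10.80 and 10.69 in the mdm mutant mice, against 10.56 and 10.63 in the wild type mice. These values did not overlap, by a gap of 0.06, and the difference of 0.15 ± 0.06 was not called (adjusted p = 0.185).

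Versican (Vcan, Entrez 13003) read 7.41 and 7.34 in the mdm mutant mice, against 7.39 and 7.22 in the wild type mice. The groups overlapped, and the difference of 0.07 ± 0.08 was not called (adjusted p = 0.593). Its 95% interval ended at 1.20-fold. The probe set read close to the middle of the array, above 51.9% of probe sets, and the table holds no detection calls, so its level was not shown to lie above background.

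**Figure D1:**
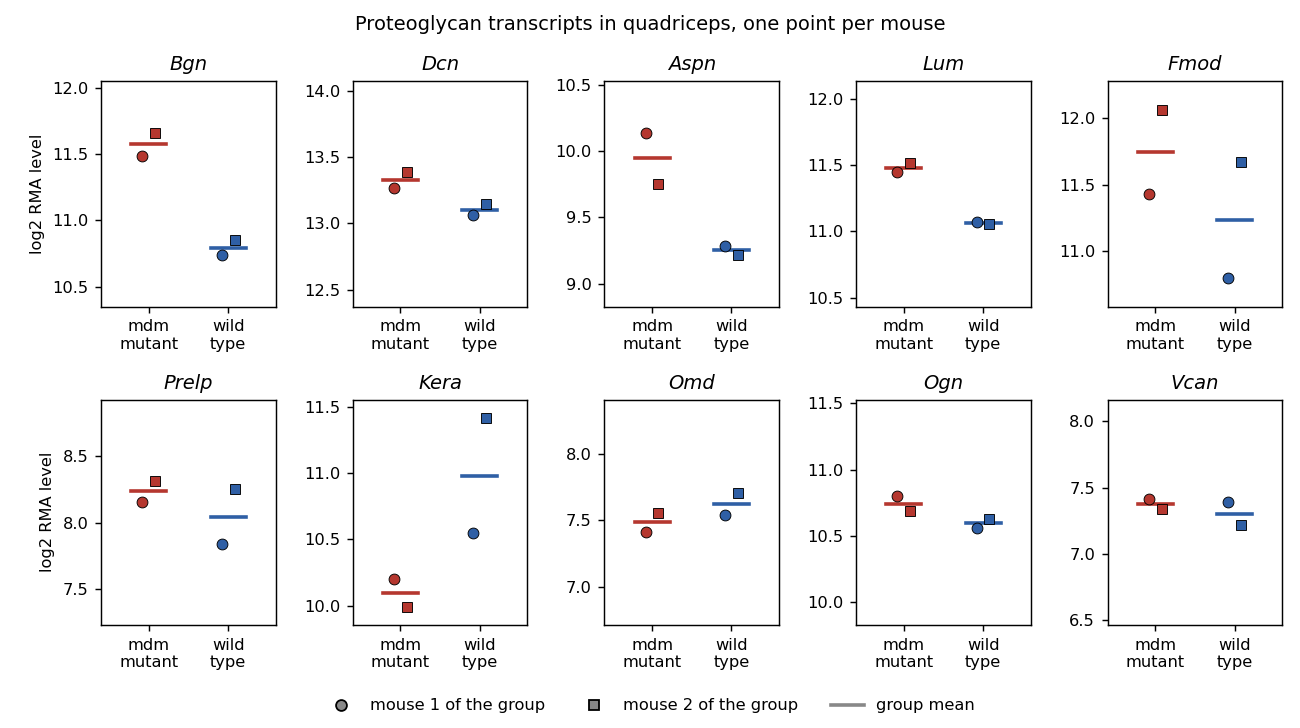
Log2 RMA level of each gene in the 4 quadriceps samples, mdm mutant at left and wild type at right in each panel, with 1 point per mouse and a bar at the group mean. All panels span the same number of log2 units, and in Bgn, Aspn and Lum both mdm mutant points sit clear above the wild type points, while in Fmod and Kera the 2 wild type mice stand 0.87 apart.

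**Figure D2:**
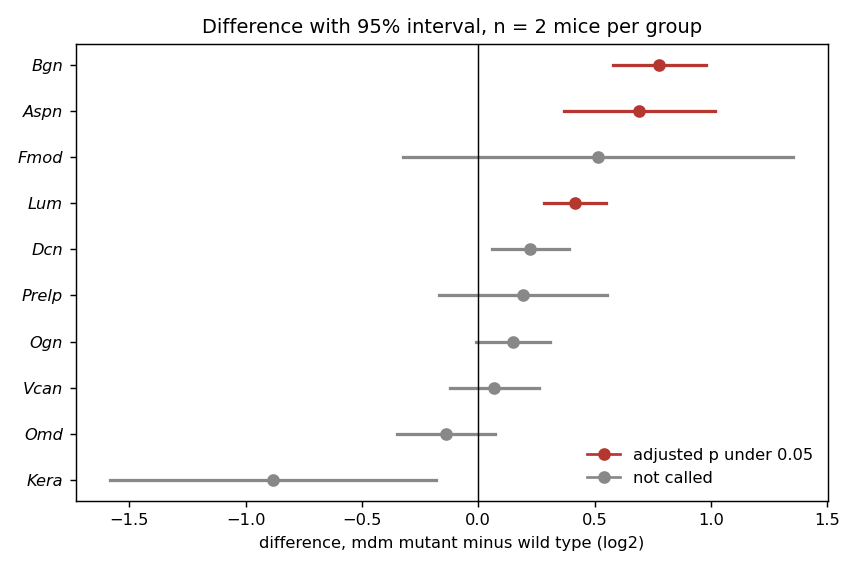
Difference of each gene in log2 units, mdm mutant minus wild type, with its 95% interval from limma, sorted from the highest to the lowest. Red marks the 3 called genes (Bgn, Aspn and Lum), grey the 7 not called, among which Fmod and Kera have the widest intervals.

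The 10 genes differed widely in how far mice of 1 group lay apart. The pooled SD within groups was 0.03 for Lum and 0.54 for Fmod, with a median of 0.11, against a median of 0.06 over all probe sets. Fmod, Kera and Prelp had SDs of 0.54, 0.45 and 0.22, larger than in 99.7%, 99.5% and 97.1% of probe sets. For all 3 wild type 2 lay above wild type 1, by 0.87, 0.87 and 0.41. In the mdm mutant group mouse 2 lay above mouse 1 by 0.63 for Fmod and 0.16 for Prelp, whereas for Kera it lay 0.21 below.

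Most tendon markers also stood higher in wild type 2 than in wild type 1, while between the mdm mutant mice they went both ways. Of 9 measured markers, 8 were higher in wild type 2 than in wild type 1, with a median gap of 0.44. In mdm mutant 2, 5 were higher than in mdm mutant 1, with a median gap of 0.02. The tendon matrix genes Comp and Thbs4 stood apart the way Fmod did, with gaps of 0.72 and 0.56 between the wild type mice and 0.63 and 0.30 between the mdm mutant mice. Tnmd, tenomodulin, a membrane protein of tendon cells, stood apart the way Kera did, with 0.51 between the wild type mice and −0.23 between the mdm mutant mice. The transcription factor Scx, which specifies tendon cells, showed gaps of 0.43 and −0.36. These genes were singled out after their values were seen. None of the 9 markers was called between the groups (0 higher and 0 lower by limma, 3 with an unadjusted p under 0.05) with all 4 mice. Over all probe sets 12.8% were called. Without wild type 1, Egr1 was called higher and Col11a1 lower, and without wild type 2, Thbs4 and Ptgis were called higher. The mean level over the list was 9.17 and 9.17 in the mdm mutant mice, against 8.83 and 9.11 in the wild type mice. The part of tendon content in the differences of Fmod, Prelp and Kera was not tested.

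**Figure D3:**
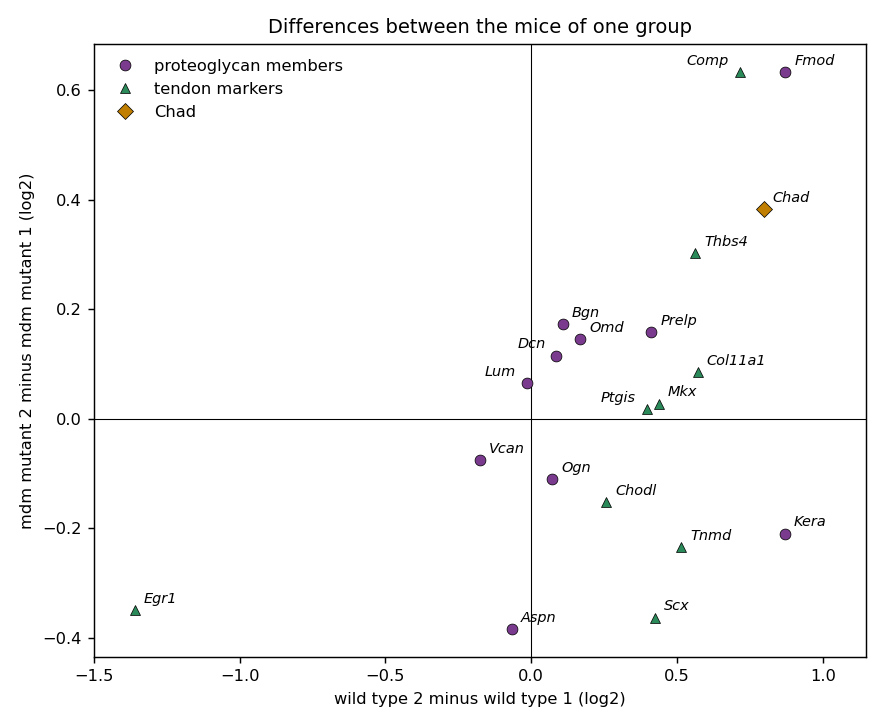
Gap between the wild type mice (horizontal axis, wild type 2 minus wild type 1) and between the mdm mutant mice (vertical axis, mdm mutant 2 minus mdm mutant 1), both in log2 units, for the 10 proteoglycans, the 9 tendon markers and Chad. Fmod lies beside Comp at the upper right, Kera lies right of Tnmd at the lower right, and Lum lies near the origin.

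Most of the genes stand in clusters of neighbours, by gene order in RefSeq annotation of GRCm38.p6. Dcn, Lum and Kera follow each other on chromosome 10 with 0 other protein-coding genes between them, Aspn, Omd and Ogn on chromosome 13 and Prelp and Fmod on chromosome 1, while Bgn lies on chromosome X and Vcan apart from the others on chromosome 13. Within a cluster, the difference of Kera minus that of Lum was −1.30, and the difference of Aspn minus that of Omd was 0.83. These were the lowest and the highest of 7 pairs compared. The others were Kera minus Dcn (−1.11), Lum minus Dcn (0.19), Aspn minus Ogn (0.54), Ogn minus Omd (0.29) and Fmod minus Prelp (0.32). An exact two-sided permutation test of 2 against 2 mice cannot go below p = 0.333, so these differences are given as values.

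The genes whose 4 values lay closest to a called member, by Euclidean distance on the log2 scale over the 4 arrays after centring each gene on its wild type mean, were Rnf145, Fat1 and Ncam1 for Bgn (distances of 0.06, 0.08 and 0.09). For Lum they were Ninj1, Arpc2 and Cyp4f14 (0.01, 0.03 and 0.03), and for Aspn they were Erbin, Znrf2 and Sytl2 (0.08, 0.10 and 0.10). These distances rest on 4 arrays.

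Of 6 other small leucine-rich proteoglycans measured, 0 were called by limma, against 12.8% of all probe sets, and 2 had an unadjusted p under 0.05. With 6 genes, a count of 0 sets them apart neither from the array nor from the 10 members. Podocan (Podn) differed by 0.23 ± 0.07 (adjusted p = 0.0758). Chondroadherin (Chad), a collagen-binding protein of cartilage and tendon, read 9.60 and 9.98 in the mdm mutant mice, against 8.60 and 9.40 in the wild type mice, a difference of 0.79 ± 0.27 (adjusted p = 0.123). Its wild type mice stood 0.80 apart.

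Around versican, the hyaluronan genes moved in part. Of 24 hyalectans and hyaluronan partners, 4 were called higher and 0 lower (16.7% higher, against 6.46% of all probe sets), with a median of 0.05. Differences were above 0 for 13 of them and below 0 for 11. Cd44, the hyaluronan receptor, rose by 0.90 ± 0.09 (adjusted p = 0.00923), with levels of 8.67 and 8.92 in the mdm mutant mice, against 7.91 and 7.89 in the wild type mice. Tnfaip6, which links hyaluronan to inter-alpha-inhibitor heavy chains, rose by 0.34 ± 0.06. The hyaluronan synthase Has1 rose by 0.26 ± 0.05 and the heavy chain Itih5 by 0.23 ± 0.05. Has1 read 7.21 and 7.21 in the mdm mutant mice, against 6.92 and 6.97 in the wild type mice. These levels lie below the array median of 7.28 and were not shown to lie above background. The other hyalectans Acan, Bcan and Ncan were not called, with differences of 0.09, −0.03 and −0.04. The number called higher was 1 with any 1 mouse left out.

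Proteases that cleave versican and related cores were called in both directions. Of 16 genes in the list of proteases and their inhibitors, 3 were called higher and 2 lower (31.2% in all, against 12.8% of all probe sets), with a median of 0.21. The versican-cleaving protease Adamts1 rose by 0.60 ± 0.10 and read 9.76 and 9.65 in the mdm mutant mice, against 8.98 and 9.24 in the wild type mice. Adamts5, which cleaves versican and aggrecan, fell by 0.63 on the log2 scale (−0.63 ± 0.11) and read 7.93 and 7.77 in the mdm mutant mice, against 8.62 and 8.34 in the wild type mice. Adamts8 also fell (−0.43 ± 0.06), while the gelatinase Mmp2 and the metalloproteinase inhibitor Timp3 rose by 0.70 ± 0.12 and 0.28 ± 0.06. Adjusted p-values of these 5 genes by limma lay between 0.0185 and 0.0357. The genes called changed with the mouse left out. Without mdm mutant 1 they were Mmp13, Mmp2 and Mmp9 (differences of 1.72, 0.83 and 0.75), so Adamts1 and Timp3 were not among them. Without wild type 2 they were Adamts1 and Adamts5 (0.73 and −0.77). None was called without mdm mutant 2 or without wild type 1.

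Genes that build the sugar chains were called about as often as the array as a whole. Of 24 linkage and chondroitin or dermatan sulfate genes, 2 were called higher and 1 lower (12.5% in all, against 12.8% of all probe sets), with a median of 0.05. The chondroitin synthase Chsy1 rose by 0.41 ± 0.08 and the dermatan sulfate epimerase Dse by 0.28 ± 0.06, and the chondroitin sulfotransferase Chst7 fell (−0.34 ± 0.05). Of 9 keratan sulfate genes, 0 were called higher and 1 lower (11.1%). It was the sialyltransferase St3gal3 (−0.45 ± 0.07, adjusted p = 0.0185), and with 1 mouse left out 0 or 1 were called lower. A separate list held 15 heparan sulfate proteoglycans and related surface proteins. Of these, 2 were called higher and 0 lower (13.3% higher, against 6.46% of all probe sets). They were the syndecan Sdc1 (0.32 ± 0.06) and the glypican Gpc3 (0.32 ± 0.07). The number called higher was at most 1 among the chondroitin and dermatan sulfate genes and 0 among the heparan sulfate proteoglycans with any 1 mouse left out, and Chst7 was called in none of these 4 fits.

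Of 24 fibrillar collagens and fibril partners that the small proteoglycans work with, 6 were called higher and 0 lower (25.0% higher, against 6.46% of all probe sets), with a median of 0.11. The 4 with the smallest p were Cilp, a matrix protein of cartilage and tendon (2.69 ± 0.06), the fibulin Fbln2 (0.55 ± 0.06) and the collagen cross-linking enzymes Loxl1 and Lox (0.68 ± 0.09 and 0.46 ± 0.08). Col1a1 and Col1a2, the chains of type I collagen, differed by −0.19 ± 0.11 and −0.09 ± 0.06 and Col3a1 by 0.29 ± 0.07 without being called. The list shares Thbs4, Comp and Col11a1 with the tendon markers. With any 1 mouse left out, 3 or 4 were called higher, 3 without mouse 1 of either group, and 1 was called lower without wild type 1.

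Among ligands and receptors that these proteoglycans bind, 5 of 20 were called higher and 0 lower (25.0% higher, against 6.46% of all probe sets), with a median of 0.18. Tgfb2 and Tgfb3, growth factors of the transforming growth factor beta family, rose by 0.65 ± 0.07 and 0.49 ± 0.09, while Tgfb1 differed by 0.05 ± 0.06 without being called. Tlr4, a receptor for soluble biglycan, rose by 0.65 ± 0.09 and read 7.67 and 7.74 in the mdm mutant mice, against 6.93 and 7.18 in the wild type mice. Its wild type levels lie below the array median of 7.28 and were not shown to lie above background. Lrp1, an endocytic receptor for decorin, rose by 0.51 ± 0.08. With any 1 mouse left out, 1 to 3 were called higher, fewest without mdm mutant 2, and 1 was called lower without mdm mutant 1.

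**Figure D4:**
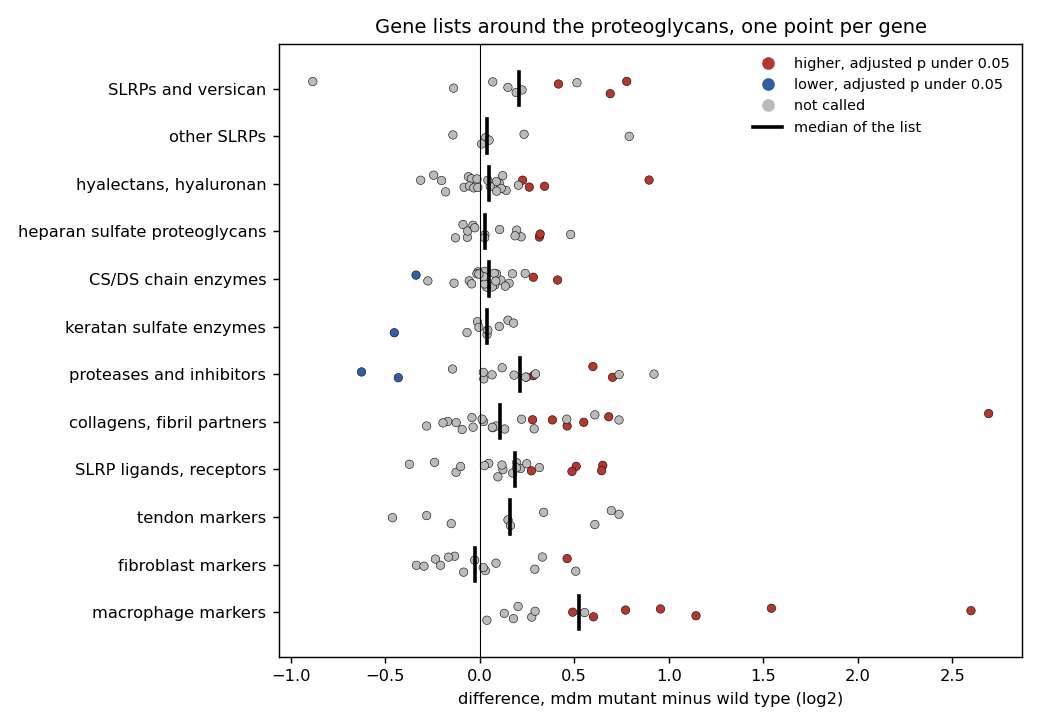
Difference in log2 units, mdm mutant minus wild type, of every measured gene in 12 lists, 1 point per gene, with red for called higher, blue for called lower, grey for not called and a black bar at the median. The proteoglycan row runs from Kera at −0.88 to Bgn at 0.78, and the macrophage row lies above 0 throughout.

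Markers of some other cells were called more often than the array as a whole, where 6.46% of probe sets were higher and 6.36% lower. With all 4 mice, macrophage markers lay above the first share, and endothelial and smooth muscle markers above the second. Fibroblast markers were called higher about as often as all probe sets, and no adipocyte marker was called. No list was tested against these shares. Of 14 macrophage markers, 7 were called higher and 0 lower (8, 4, 3 and 2 higher with mutant 1, mutant 2, wild type 1 and wild type 2 left out), and their mean level was 8.86 and 9.08 in the mdm mutant mice, against 8.33 and 8.22 in the wild type mice. Those with the smallest p were galectin 3 (Lgals3), Mpeg1, lysozyme (Lyz2) and Ms4a7, at 2.60 ± 0.19, 1.54 ± 0.15, 1.14 ± 0.13 and 0.96 ± 0.13. Of 15 fibroblast and fibro-adipogenic progenitor markers, 1 was called higher and 0 lower, and 6 had an unadjusted p under 0.05 by limma. Differences were above 0 for 7 markers and below 0 for 8. The called marker was Lox, which with 1 mouse left out stayed called only without wild type 2. Gsn was called higher without mdm mutant 1 (0.69) and Mfap5 without mdm mutant 2 (0.48). Mean levels over the list were 8.78 and 8.79 in the mdm mutant mice, against 8.77 and 8.77 in the wild type mice. Pdgfra, a defining marker of these progenitors, differed by 0.03 ± 0.05. Of 10 endothelial markers 0 were called higher and 2 lower (Pecam1 and Robo4), and all 10 differences were below 0, with a median of −0.32. With 1 mouse left out Pecam1 was never called. Robo4 was called only without mdm mutant 1 (−0.57), beside other endothelial markers, and Cldn5 only without wild type 2 (−1.09). No endothelial marker was called without mdm mutant 2 or without wild type 1. Of 10 smooth muscle and pericyte markers 0 were called higher and 2 lower (Abcc9 and Cnn1). With 1 mouse left out Cnn1 was never called, and Abcc9 only without mdm mutant 1 or 2 (−0.39 and −0.46). Acta2 was called higher without wild type 1 (0.63). Of 8 adipocyte markers 0 were called in either direction by limma, with 5 at an unadjusted p under 0.05. Without wild type 1, 4 adipocyte markers were called higher (Adig, Adipoq, Cidec and Pparg). The part of these cells in the differences of Bgn, Aspn and Lum was not tested. The 12 skeletal muscle fibre markers read at mean levels of 14.09 and 14.02 in the mdm mutant mice, against 14.08 and 14.12 in the wild type mice, near the array maximum of 14.98, and 1 of them (Pygm) was called lower without mdm mutant 2. Acta1 and Tnni2 each read 1 value on all 4 arrays, 14.98 and 14.75. RMA brings arrays to 1 distribution, so the brightest probe sets can share values. These levels therefore do not show equal fibre content. Titin itself (Ttn) differed by 0.05 ± 0.05 (adjusted p = 0.564), and where its probes lie relative to the mutation is not given, so its level checks no label.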

How the data were processed

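RNA from quadriceps of 2 mdm mutant and 2 wild type mice was hybridised as biotin-labelled cRNA, per the labels' protocols. The authors deposited log2 values from RMA (a tool the submitters' processing notes name without a version). RMA brings arrays to 1 distribution, and all columns shared the same sorted values apart from 26 ranks that differed by over 1e-06. A shift of most transcripts together would therefore not be seen. Precision is limited by the number of arrays.

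The table listed 16553 probe sets, from which 61 controls were dropped. Among the 16492 kept, 15270 had 1 gene symbol, 0 had several and 1222 had none in the platform annotation, and symbols were updated by Entrez number from RefSeq. The fit used lmFit and eBayes of limma 3.58.1 (R 4.3.3), with 3.35 prior and 2 residual degrees of freedom. Figures used matplotlib 3.10.9.

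On simulated data for this comparison, with 16492 genes of which 200 were changed, 62.7% of changes of 0.5 on the log2 scale, 93.7% of changes of 1 and 99.7% of changes of 2 were recovered, with 9.2 false calls per draw over 5 draws.

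The 10 genes and all lists were chosen with earlier results of these data known, so no list was tested. Named genes were the 10 members, Ttn, up to 4 called genes per list by smallest p (or 2 where none was called) and the 3 nearest profiles of each called member. Others are singled out after their values were seen: Acan, Bcan, Ncan, Col1a1, Col1a2, Col3a1, Tgfb1, Pdgfra and the tendon genes. The same holds for genes called only with a mouse left out.

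Alternatives were another filter, 3 other scalings, 2 other variance settings, other thresholds and each mouse left out.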

Additional observations from a re-analysis of the deposited data

How the results depend on the processing

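Of 100 pairs of a member gene and an alternative setting, 87 kept both direction and side of the threshold. A member that was not called counts as kept while it stays uncalled with the same sign. Of the 3 called members, Bgn kept its call in 9 settings and lost it in 1, Aspn in 7 and 3, and Lum in 6 and 4. With no moderation of the variances (2 degrees of freedom a gene), Bgn, Lum and Aspn kept their differences of 0.78, 0.42 and 0.69 with adjusted p of 0.200, 0.187 and 0.279. Under that setting 0 members were called in either direction, 0 probe sets were called higher and 1 lower, and 0 genes of the other lists were called. With arrays centred on 18 hybridization control probe sets, Dcn and Ogn were also called (0.34 and 0.26, adjusted p = 0.0280 and 0.0359). Under this setting 5 members were called higher, beside 2829 probe sets higher and 603 lower (17.2% and 3.66%), and 64 genes of the other lists higher and 5 lower. In place of these, 1066 and 1049 probe sets and 29 and 8 genes of the other lists were called under the main setting. The median difference over the array was then 0.09 in place of −0.02, since the controls averaged 11.01 and 10.99 in the mdm mutant mice, against 11.10 and 11.12 in the wild type mice, and the cause was not tested. At an adjusted p under 0.01, 1 member (Bgn), 183 probe sets and 5 genes of the other lists were higher, and 121 probe sets and 0 genes of the other lists lower. At an adjusted p under 0.1, 4 members (Dcn added), 1800 probe sets and 55 genes of the other lists were higher, and 1 member (Kera), 1919 probe sets and 14 genes of the other lists lower.

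With 1 mouse left out, 287 to 637 probe sets were called higher and 186 to 545 lower, 1 to 3 members higher and 0 to 1 lower, and 11 to 21 genes of the other lists higher and 2 to 8 lower. The differences ranged from 0.69 to 0.86 for Bgn, 0.50 to 0.88 for Aspn, 0.17 to 0.28 for Dcn, 0.38 to 0.45 for Lum, 0.08 to 0.95 for Fmod, −1.32 to −0.45 for Kera, −0.22 to −0.05 for Omd and 0.09 to 0.20 for Ogn. Prelp changed sign without wild type 1 (−0.013, up to 0.40 in the other fits) and Vcan without wild type 2 (−0.019, up to 0.16 in the others), and the cause was not tested. These fits have fewer samples, and the lone mouse of a group is assumed to vary like the others. No paired analysis was possible because every mouse has its own number and the labels link none across groups.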

Other observations

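Genes of cartilage and bone stood apart in 1 mouse. Of 10 measured cartilage and bone markers, 9 were higher in mdm mutant 2 than in mdm mutant 1. Between the groups 0 were called, against 12.8% of all probe sets, and 2 had an unadjusted p under 0.05 by limma. Without mdm mutant 1, Ibsp and Col2a1 were called higher, and without mdm mutant 2 none was. Ibsp, bone sialoprotein, read 6.12 and 7.44 in the mdm mutant mice, against 6.07 and 6.07 in the wild type mice. Col2a1, the collagen of cartilage, read 7.45 and 8.44 in the mdm mutant mice, against 7.45 and 7.72 in the wild type mice. The collagenase Mmp13 read 6.26 and 7.85 in the mdm mutant mice, against 6.17 and 6.09 in the wild type mice. These genes were picked after their values were seen. Outside mdm mutant 2, the levels of Ibsp and Mmp13 lie below the array median of 7.28 and were not shown to lie above background. Without mdm mutant 2, the difference of Bgn was 0.69, that of Lum 0.38 and that of Aspn 0.88.

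Adipocyte markers stood apart in another mouse. Of 8 measured markers, 6 read lower in wild type 2 than in wild type 1, with a median gap of −0.56. Without wild type 1, 4 were called higher in the mdm mutant mice, and in the other 3 fits with 1 mouse left out 0 were. Adipoq, adiponectin, read 11.49 and 11.75 in the mdm mutant mice, against 11.31 and 10.07 in the wild type mice, and Retn, resistin, read 10.14 and 10.61 in the mdm mutant mice, against 9.94 and 8.97 in the wild type mice. These 2 genes were likewise picked after their values were seen. Wild type 2 was also the mouse with the highest Kera, at 11.41, and read above wild type 1 for 8 of 9 tendon markers. A link between these readings was not tested.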
